A study of Ovis aries with 6 samples.

Results

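Secreted Wnt inhibitors are the 9 genes of a fixed list (FRZB, SFRP1, SFRP2, SFRP4, DKK1, DKK2, DKK3, WIF1 and APCDD1), taken by gene symbol from the 18865 rows of a table of raw RNA sequencing counts. All 9 symbols were found. FRZB encodes sFRP3. The table covers mitral valve endothelial cells (VECs) of sheep (Ovis aries), which form the surface layer of the valve's leaflets. The cells had been kept for 24 h either with plasma of sheep that had a myocardial infarction (post-MI plasma) or with plasma of naive sheep, in 3 libraries each, and no other agent is named for either group. The labels name no breed, age, passage or number of plasma and cell donors. They do not tie the libraries of 1 group to separate cultures or animals, so p-values describe the spread between libraries, which may be technical.

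Wnt proteins are secreted ligands that bind Frizzled receptors and LRP co-receptors, which stabilises beta-catenin and switches on target genes through TCF and LEF factors. Secreted inhibitors act outside the cell. The sFRP family carries a Frizzled-like cysteine-rich domain and binds Wnt proteins, WIF1 binds Wnt proteins through a domain of its own, and DKK1 and DKK2 bind the LRP co-receptors. Wnt signalling takes part in heart valve development and has been tied to EndMT (endothelial-to-mesenchymal transition), the change by which an endothelial cell gains mesenchymal features.

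Total counts per library were 14858472 to 20672794. Levels are given as CPM, which scales a count by its library's total and by a TMM factor (0.986 to 1.03). A gene was taken to lie at the count floor in a library when it had 3 counts or fewer, which equals 0.141 to 0.205 CPM. All 12 endothelial markers looked up were above 3 counts in every library. Their summed levels were 3174 to 4384 CPM with post-MI plasma and 2886 to 3629 CPM with naive plasma. Single markers differed in their order. PECAM1, TIE1, VWF, EGFL7, ROBO4, CLDN5 and ESAM were highest in post-MI replicates 1 and 2. Of all genes tested, 11.9% had this pair above the other 4 libraries. TEK, KDR and NOS3 were highest in naive replicate 1, CDH5 in post-MI replicate 2 and ERG in naive replicate 3. CLDN5 was at 0.2 CPM in naive replicate 1. All 12 markers of fibroblasts and valve interstitial cells were above the floor as well, at a summed 14349 to 18992 CPM with post-MI plasma and 11153 to 20885 CPM with naive plasma. COL1A1 alone was at 6629 to 8730 CPM in the post-MI libraries and 3171 to 9777 CPM in the naive libraries. It was lowest in naive replicate 1, as were COL1A2, COL3A1, DCN, PDGFRB, FBLN1, TCF21 and MFAP5. POSTN and PDGFRA were highest there, and LUM and DPT were neither. POSTN was at 503 to 633 CPM in the post-MI libraries, against 3060, 867 and 733 CPM in naive replicates 1, 2 and 3. The leukocyte list (8 of 9 markers in the table) summed to 35.7 to 42.8 CPM with post-MI plasma and 36.3 to 55.6 CPM with naive plasma, and the lymphatic list (4 of 4) to 9.52 to 12.8 CPM with post-MI and 7.99 to 23.3 CPM with naive plasma. Above the floor in all libraries were 3 of the 8 leukocyte and 2 of the 4 lymphatic markers. CD14 and CD68 made up most of each leukocyte sum. PTPRC was at 0.643 to 1.33 CPM with post-MI and 0.141 to 0.347 CPM with naive plasma. The red cell and platelet list (2 of 6, with PPBP at 0 throughout) summed to 3.46 to 5.89 CPM with post-MI and 4.98 to 5.35 CPM with naive plasma. Naive replicate 1 stood apart: on the first principal component of the 500 most variable genes (59.2% of their variance) it lay at 52.3, against -18.5 to -12.6 for the post-MI libraries and -4.06 and 0.50 for the other naive libraries. It held 66 genes that lay over 2 log2 units above the remaining libraries and 138 that lay over 2 log2 units below them. Post-MI replicate 3 held 40 above and 0 below by the same rule, where post-MI replicates 1 and 2 held 0 above.

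Of the 9 inhibitors, SFRP1, DKK3, APCDD1 and SFRP4 were above 3 counts in all 6 libraries, as were 75.7% of the table's rows. SFRP2 was at the floor in all 6 libraries, as were 17.5% of rows. FRZB, DKK1, DKK2 and WIF1 were at the floor in some libraries and above it in others, as were 6.77% of rows. DKK1 and DKK2 were at the floor in 5 of the 6 libraries, FRZB in 3 and WIF1 in 1. SFRP1, DKK3 and APCDD1 took 97.4% to 98.9% of the summed counts of the 9 genes in each library. That sum was 177, 171 and 115 CPM in post-MI replicates 1, 2 and 3, against 36.0, 112 and 97.8 CPM in naive replicates 1, 2 and 3. The sums of the groups did not overlap, narrowly so for post-MI replicate 3, and naive replicate 1 was by far the lowest. Of single genes tested, 16.1% did not overlap in either direction. SFRP1 and DKK3, which make up much of the sum, each overlapped between the groups.

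**Figure D1:**
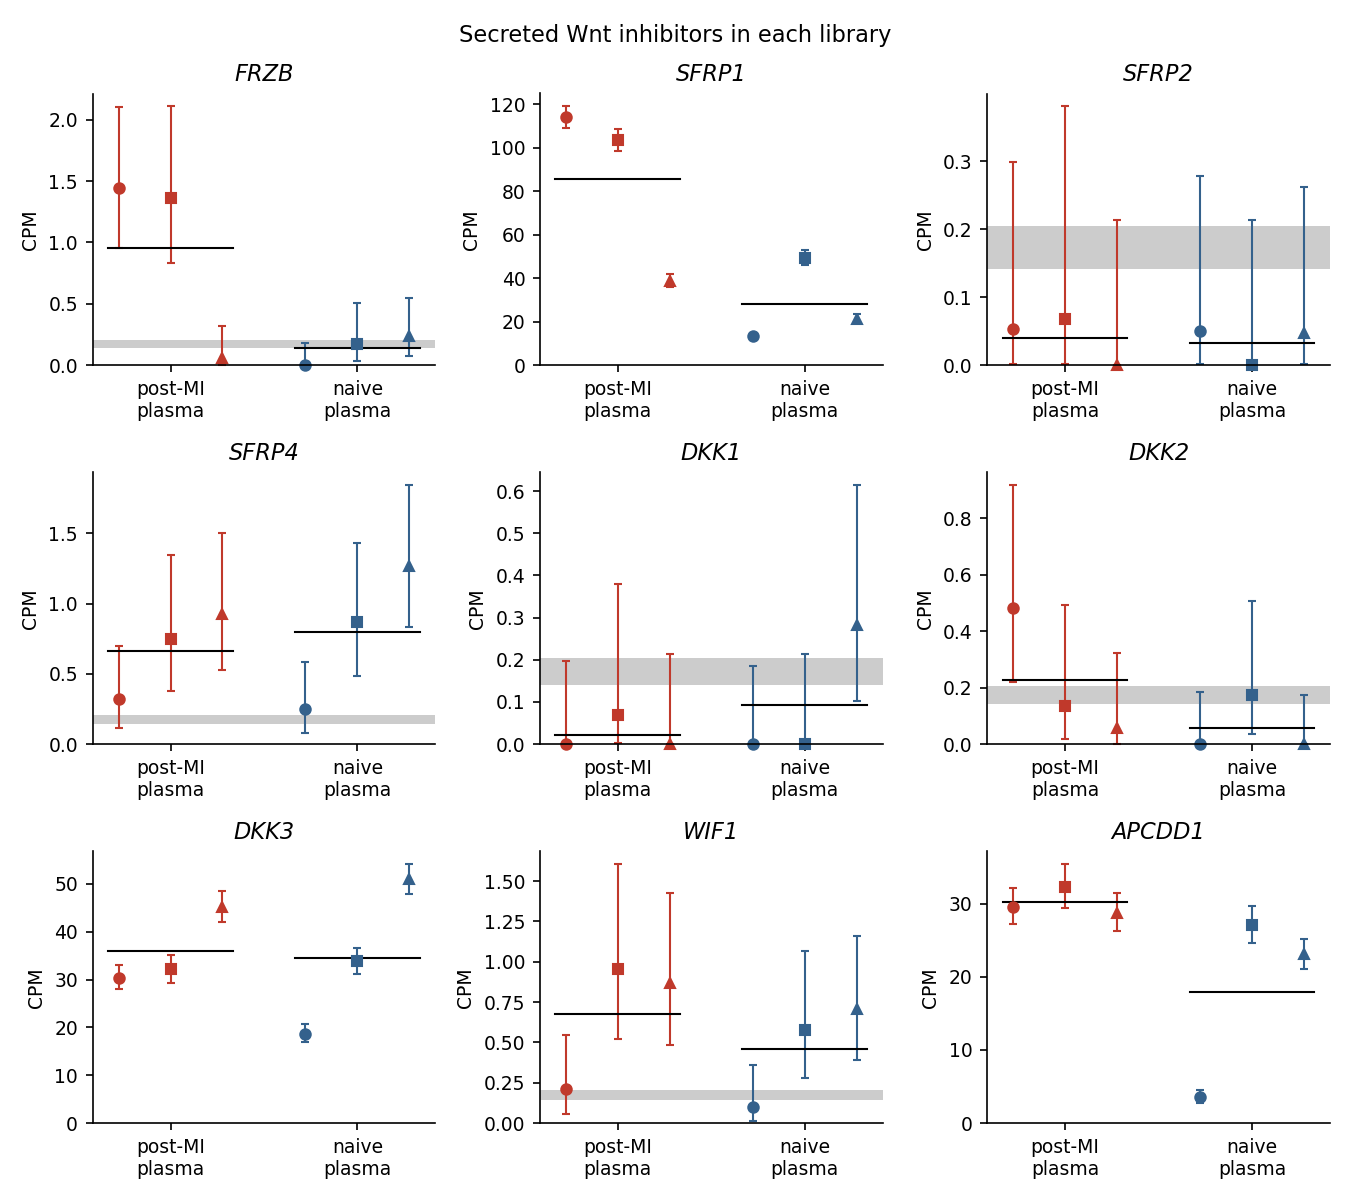
Level of each secreted Wnt inhibitor (CPM, linear axes from 0) in the 3 post-MI libraries (red, left) and the 3 naive libraries (blue, right); circles, squares and triangles are replicates 1, 2 and 3, thin bars are exact Poisson 95% intervals of the count, black lines are group means, and the grey band is the range of 3 counts over the libraries. The intervals of FRZB lay above the floor in post-MI replicates 1 and 2 alone, and APCDD1 was far below its other values in naive replicate 1.

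The comparison asked whether post-MI plasma changed the expression of these inhibitors. By the quasi-likelihood test of edgeR, adjusted by Benjamini-Hochberg, 0 of the 5 members that passed the count filter were called, where 0 of 14326 genes (0%) were called in all. At an unadjusted p under 0.05 edgeR gave 1244 genes (8.68%), with SFRP1 as the one member among them. The other tools called 0 genes (limma-voom, 1185 or 8.27% at an unadjusted p under 0.05) and 218 genes (DESeq2, 1.52%, and 9.78% at an unadjusted p under 0.05), with 0 members in both (DESeq2 gave no adjusted p for SFRP4 and WIF1). APCDD1 was the 1 of the 5 members whose groups did not overlap in CPM, where 16.1% of all genes tested did not overlap in either direction and 8.32% in the direction of APCDD1. The members thus stood near the background on both counts.

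FRZB, which encodes the Wnt-binding sFRP3, was read 27, 20 and 1 times in post-MI replicates 1, 2 and 3, against 0, 3 and 5 times in naive replicates 1, 2 and 3. These counts equal 1.45, 1.37 and 0.0577 CPM with post-MI plasma and 0, 0.174 and 0.235 CPM with naive plasma, where the floor of 3 counts equals 0.15 CPM in naive replicate 1 and the exact Poisson 95% interval of its 0 counts reaches 0.185 CPM. Post-MI replicates 1 and 2 were the highest of the 6 libraries, while post-MI replicate 3 lay below naive replicates 2 and 3, so the groups overlapped. The split within the post-MI group was larger than counting error. The exact Poisson 95% interval of post-MI replicate 1 was 0.953 to 2.10 CPM and that of post-MI replicate 2 was 0.834 to 2.11 CPM. That of post-MI replicate 3 was 0.00146 to 0.322 CPM. The highest naive interval, that of replicate 3, ran from 0.0763 to 0.548 CPM.

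FRZB did not pass the count filter. Its difference in mean CPM gave p = 0.3 in a two-sided exact permutation test, where 3 libraries against 3 allow no p below 0.1. Without the filter edgeR gave FRZB a log2 fold change of 2.75 ± 1.15 (SE; 95% interval 0.08 to 5.42; adjusted p = 0.615). The lowest value was 2.18, without naive replicate 1, and the highest 3.43, without naive replicate 3. Without post-MI replicate 3 the counts of the groups no longer overlapped, as was so for 32% of all genes tested in that fit, the log2 fold change was 3.31 and the adjusted p in edgeR was 0.378. With naive replicate 1 left out as well it was 2.74, with an adjusted p of 0.0666 in edgeR, in a fit where 46.8% of all genes tested did not overlap between the groups. The genes beside FRZB in the RefSeq annotation of the sheep assembly ARS-UI_Ramb_v3.0 are NCKAP1 and LOC105608906, and no annotated gene overlaps it there. NCKAP1, a subunit of an actin-regulating complex, was at 179 to 207 CPM in the post-MI libraries and 197 to 240 CPM in the naive libraries.

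SFRP1, another Wnt-binding sFRP, was at 114, 104 and 38.7 CPM in post-MI replicates 1, 2 and 3, against 13.3, 49.4 and 21.3 CPM in naive replicates 1, 2 and 3. Post-MI replicates 1 and 2 were far above any other library, and post-MI replicate 3 lay between naive replicates 2 and 3. The groups therefore overlapped through the pair of post-MI replicate 3 and naive replicate 2. Group means were 85.5 ± 40.8 CPM with post-MI plasma and 28.0 ± 19.0 CPM with naive plasma (SD, n = 3 each). The log2 fold change was 1.61 ± 0.57 (SE; 95% interval 0.28 to 2.95), with an adjusted p of 0.558 in edgeR and 0.0893 in DESeq2. It was lowest without naive replicate 1 (1.29) and highest without naive replicate 2 (2.30). With naive replicate 2 left out the groups did not overlap (edgeR adjusted p = 0.323), where 30% of all genes tested did not overlap either. The same held with post-MI replicate 3 left out (edgeR adjusted p = 0.373), where the share was 32%.

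FRZB and SFRP1 thus shared the high pair, post-MI replicates 1 and 2. Among all genes tested, 11.9% had this pair above the other 4 libraries and 12.7% had it below them. The ratio of SFRP1 to DKK3 counts, in which library scaling cancels, was 3.75, 3.22 and 0.856 in post-MI replicates 1, 2 and 3 and 0.711, 1.46 and 0.418 in naive replicates 1, 2 and 3. This ratio was chosen after the values were seen and is given as a description.

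SFRP2 and SFRP4 are the other members of the family on the list. SFRP2 had 1, 1 and 0 counts in post-MI replicates 1, 2 and 3 and 1, 0 and 1 counts in naive replicates 1, 2 and 3, so both groups lay under the floor and no fold is given. SFRP4 had 6, 11 and 16 counts with post-MI plasma and 5, 15 and 27 counts with naive plasma, or 0.321, 0.751 and 0.923 CPM with post-MI plasma against 0.25, 0.868 and 1.27 CPM with naive plasma. The groups overlapped across almost their whole range. SFRP4 gave a log2 fold change of -0.27 ± 0.66 (SE; 95% interval -1.83 to 1.29; edgeR adjusted p = 0.912), and it was 0.26 when naive replicate 3 was left out and 0.08 when post-MI replicate 1 was.

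**Figure D2:**
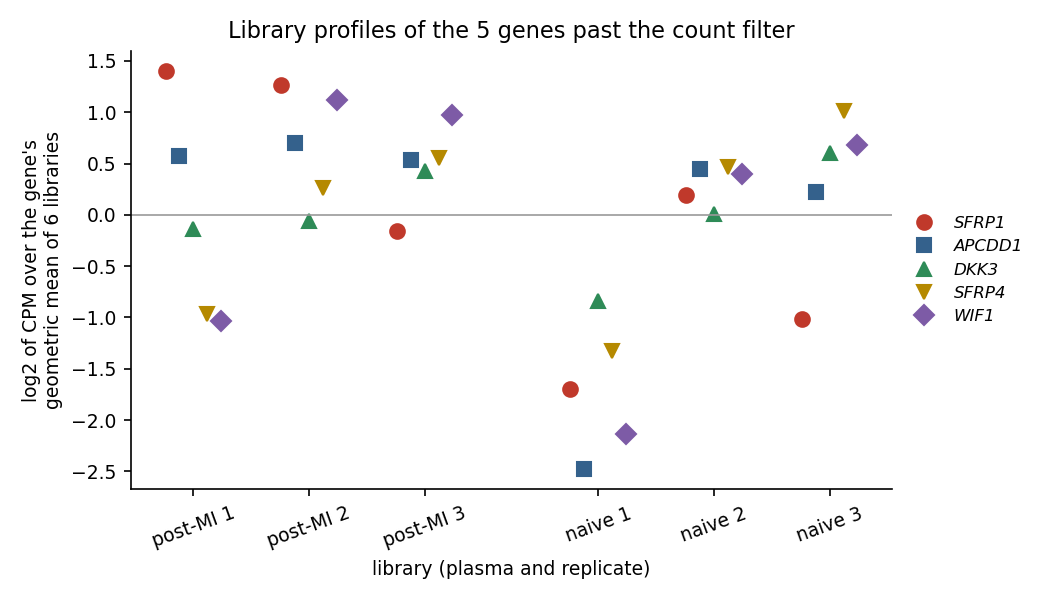
Level of the 5 inhibitors past the count filter in each library, as log2 of the CPM over that gene's geometric mean of the 6 libraries; post-MI libraries are on the left, naive libraries on the right, and 1 symbol stands for 1 gene. All 5 genes were lowest in naive replicate 1, and SFRP1 was highest in post-MI replicates 1 and 2.

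The Dickkopf genes differed in whether they were detected. DKK1, a high-affinity LRP ligand that is itself a Wnt target gene in many cells, had 0, 1 and 0 counts in post-MI replicates 1, 2 and 3 and 0, 0 and 6 counts in naive replicates 1, 2 and 3. The 6 counts of naive replicate 3 were the one value above the floor. Summed over libraries, 1 post-MI count stood against 6 naive counts, a ratio of 0.193 with an exact 95% interval of 0.00419 to 1.59 that covers counting error only. DKK2, which also binds LRP co-receptors, had 9, 2 and 1 counts with post-MI plasma and 0, 3 and 0 counts with naive plasma. Its one value above the floor was post-MI replicate 1, and 12 post-MI counts stood against 3 naive counts (ratio 4.63, exact 95% interval 1.25 to 25.5, counting error only). Over libraries DKK2 gave p = 0.3 in the two-sided exact permutation test and DKK1 gave p = 1.

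DKK3, the divergent member of the Dickkopf family, whose action on Wnt signalling varies with the cell type, was well detected. It was at 30.4, 32.2 and 45.2 CPM in post-MI replicates 1, 2 and 3, against 18.7, 33.8 and 51.0 CPM in naive replicates 1, 2 and 3. Naive libraries held both the lowest and the highest value, and the post-MI libraries lay within their range. Means were 35.9 ± 8.10 CPM with post-MI plasma and 34.5 ± 16.1 CPM with naive plasma (SD, n = 3 each). The log2 fold change of DKK3 was 0.06 ± 0.35 (SE; edgeR adjusted p = 0.966), with a 95% interval of -0.77 to 0.89. The estimate was -0.23 when naive replicate 1 was left out, -0.14 when post-MI replicate 3 was, and -0.43 without both.

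WIF1, which binds Wnt proteins outside the cell, had 4, 14 and 15 counts in post-MI replicates 1, 2 and 3 and 2, 10 and 15 counts in naive replicates 1, 2 and 3. These equal 0.214, 0.956 and 0.866 CPM with post-MI plasma against 0.1, 0.579 and 0.705 CPM with naive plasma. Replicate 1 was the lowest library of each group, and the groups overlapped. WIF1 gave a log2 fold change of 0.53 ± 0.78 (SE; 95% interval -1.30 to 2.37; edgeR adjusted p = 0.841), which was 0.06 without naive replicate 1 and 1.002 without naive replicate 3. Its groups did not overlap without post-MI replicate 1, where 23.4% of all genes tested did not. In the ARS-UI_Ramb_v3.0 annotation 1 small RNA gene lies within WIF1, and no gene overlaps any of the other 8 members.

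APCDD1 encodes a membrane-bound glycoprotein that can be shed, binds Wnt and LRP proteins, and is itself induced by Wnt signalling in several tissues. It was at 29.6, 32.3 and 28.7 CPM in post-MI replicates 1, 2 and 3, against 3.55, 27.0 and 23.1 CPM in naive replicates 1, 2 and 3. The post-MI libraries lay close together and above all naive libraries, and naive replicate 1 was far below every other library. Means were 30.2 ± 1.86 CPM with post-MI plasma and 17.9 ± 12.6 CPM with naive plasma (SD, n = 3 each). The two-sided exact permutation p was 0.1, the smallest possible, which follows from the lack of overlap and adds nothing to it. In edgeR the log2 fold change was 0.76 ± 0.61 (SE; 95% interval -0.68 to 2.19; adjusted p = 0.702). Without naive replicate 1 it was 0.28 (edgeR adjusted p = 0.676; 24.7% of all genes tested did not overlap in that fit) and without naive replicate 2 it was 1.18. The exact Poisson 95% intervals of the closest pair overlapped: that of post-MI replicate 3 ran from 26.3 to 31.4 CPM and that of naive replicate 2 from 24.6 to 29.6 CPM. That of naive replicate 3, 21.1 to 25.2 CPM, lay below the intervals of all 3 post-MI libraries. These intervals cover counting error and not the spread between libraries. The genes beside APCDD1 in that annotation, VAPA and NAPG, gave log2 fold changes of 0.14 and 0.20 (edgeR adjusted p = 0.722 and 0.66).

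**Figure D3:**
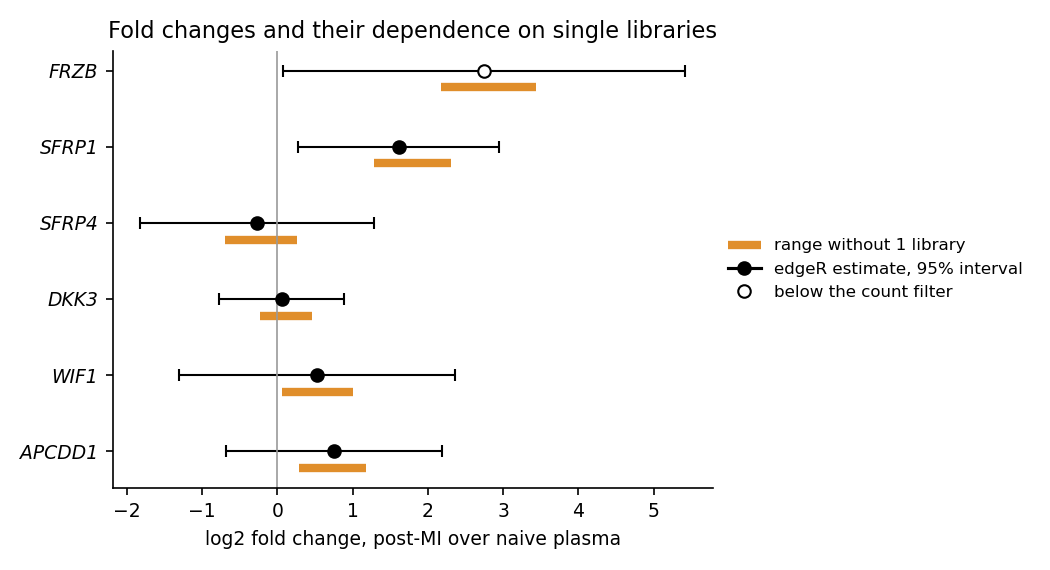
Log2 fold change of 6 secreted Wnt inhibitors, post-MI over naive plasma, from edgeR (dots, with 95% intervals; the open dot is FRZB, fitted without the count filter) and the range of the estimate when each library was left out in turn (orange bars). The intervals of FRZB (0.08 to 5.42) and SFRP1 (0.28 to 2.95) lay above 0 before adjustment, and the ranges of SFRP4 and DKK3 crossed 0.

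Of the 9 members, 6 (FRZB, SFRP1, SFRP4, DKK3, WIF1 and APCDD1) had their lowest level in naive replicate 1. Of all genes tested 29.2% were lowest and 28.8% highest in that library. Smooth muscle and pericyte markers (9 of 10 in the table, RGS5 at 0 in all libraries) summed to 4609 to 6281 CPM in the post-MI libraries, against 996 CPM in naive replicate 1 and 5091 and 2580 CPM in naive replicates 2 and 3. ACTA2 made up most of each sum, with 643 CPM in naive replicate 1. MYH11, TAGLN, CSPG4 and NOTCH3 were lowest in that library as well, CNN1 and KCNJ8 were not, and SMTN was highest there (44.3 to 71.2 CPM in the post-MI libraries, against 86.2, 51.0 and 30.8 CPM in naive replicates 1, 2 and 3). Their part in the levels of the inhibitors was not tested. In bulk RNA, fewer cells of a type and less RNA per cell cannot be told apart.

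The members varied more between libraries than most genes did. The range over the 6 libraries was 3.15 log2 units for APCDD1, 3.09 for SFRP1 and 1.44 for DKK3, against a median of 0.73 over all genes tested. Within the post-MI group alone it was 0.17 for APCDD1, 1.56 for SFRP1 and 0.57 for DKK3 (median of all genes 0.37). Within the naive group it was 2.89 for APCDD1, 1.88 for SFRP1 and 1.44 for DKK3 (median of all genes 0.52). APCDD1 was thus tight with post-MI plasma and spread with naive plasma, through 1 naive library, while SFRP1 was spread in both groups.

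The libraries fell in the same order for SFRP4 and DKK3, with naive replicate 3 highest, then post-MI replicate 3, naive replicate 2, post-MI replicate 2, post-MI replicate 1 and naive replicate 1. Pearson's r of their log2 CPM over the 6 libraries was 0.89, against 0.15 for SFRP1 and DKK3 and 0.01 for SFRP1 and SFRP4. It was 0.90 for SFRP4 and WIF1, 0.80 for DKK3 and WIF1, 0.76 for WIF1 and APCDD1 and 0.75 for DKK3 and APCDD1. For SFRP4 and APCDD1 it was 0.62, and for SFRP1 and WIF1 0.32. For APCDD1 and SFRP1 it was 0.76, with a Spearman's rho of 0.886. These are descriptions over 6 points that share library scaling. Genes whose log2 CPM followed a member most closely, among 13420 genes with an average of at least 1 log2 CPM, were ALAD (r = 0.997), YAP1 (0.997) and ZNF358 (0.992) for SFRP1. For APCDD1 they were TXNDC5, ADAMTS20 and PTN (r of 0.999, 0.999 and 0.998), and for DKK3 ADGRL1, LOC105612006 and TRIM2 (0.995, 0.991 and 0.99). For SFRP4 they were TPST1, BSG and SENP5 (0.994, 0.993 and 0.993), and for WIF1 they included GPRC5C and CYHR1 (0.991 and 0.981). TXNDC5, a protein disulphide isomerase of the endoplasmic reticulum, was at 1476 to 1641 CPM in the post-MI libraries, against 444 CPM in naive replicate 1 and 1503 and 1383 CPM in naive replicates 2 and 3.

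The rest of the pathway gave 0 calls in edgeR as well. Among other extracellular modulators, 8 of the 20 genes with a row passed the count filter (DKK4 and TRABD2A were listed but not analysed here) and 11 were at the floor in all 6 libraries (SOST and SOSTDC1 among them). Log2 fold changes were positive for 6 of the 8 and negative for 2, where 47.9% of all genes tested were positive. The median was 0.44, against -0.01 over all genes tested. Of the 6 positive estimates, those of TRABD2B, GPC6, GPC4, KREMEN1 and RSPO3 were lowest without naive replicate 1. Without it GPC4 was at 0.34, KREMEN1 at -0.07 and RSPO3 at -0.02. IGFBP4 was lowest without post-MI replicate 2, at 0.49. TRABD2B, a membrane protease that cleaves Wnt proteins, was at 37.8, 37.6 and 43.6 CPM in post-MI replicates 1, 2 and 3, against 9.06, 34.1 and 13.2 CPM in naive replicates 1, 2 and 3. Its groups did not overlap, as was so for 16.1% of all genes tested in either direction. The log2 fold change of TRABD2B was 1.08 ± 0.45 (SE; edgeR adjusted p = 0.566; 0.76 without naive replicate 1 and 1.83 without naive replicate 2). IGFBP4, an IGF-binding protein that also interacts with Frizzled and LRP proteins, gave 0.68 ± 0.30 and the glypican GPC6 gave 1.32 ± 0.60 (SE; edgeR adjusted p = 0.566 for each; GPC6 0.87 without naive replicate 1). The groups of GPC6 did not overlap either. KREMEN1, a DKK receptor, was detected in every library, and KREMEN2 had no counts.

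Frizzled receptors and co-receptors were mostly detected: 15 of the 17 genes with a row passed the filter (FZD10 and LGR6 were listed but not analysed here). Log2 fold changes were positive for 10 and negative for 5 (median 0.39). Of the positive estimates, those of FZD1, FZD4, FZD6, FZD7, FZD9, LRP5, LRP6 and TSPAN12 were lowest without naive replicate 1. FZD4 was at -0.06 in that fit. FZD2 was lowest without post-MI replicate 3 and FZD8 without naive replicate 3. TSPAN12, a co-receptor of Norrin and FZD4 signalling, was at 10.9 ± 1.71 CPM with post-MI plasma and 7.03 ± 2.30 CPM with naive plasma (SD, n = 3 each; log2 fold change 0.64, edgeR adjusted p = 0.566; 0.40 without naive replicate 1). Its groups did not overlap, nor did those of LRP6 (higher with post-MI plasma) and RYK (lower), where the share of all genes tested was 16.1%. FZD7 and FZD8 gave log2 fold changes of 0.93 ± 0.50 and 0.46 ± 0.26 (SE; edgeR adjusted p = 0.595 and 0.604), with FZD7 at 0.56 without naive replicate 1, and FZD7 and FZD8 at 1.70 and 0.82 without naive replicate 2. Of 19 ligand and secretion genes with a row (WNT10B was not analysed here), 6 passed the filter (3 with positive and 3 with negative log2 fold changes, median -0.07) and 11 were at the floor throughout. WNT5A, a mainly non-canonical ligand, was at 18.9 ± 1.17 CPM with post-MI plasma and 12.2 ± 5.61 CPM with naive plasma (SD, n = 3 each; log2 fold change 0.64, edgeR adjusted p = 0.57; 1.09 without naive replicate 1). WLS, which carries Wnt proteins to the cell surface, gave -0.22 and WNT2B 0.85 (edgeR adjusted p = 0.653 and 0.674). WLS was at -0.14 without naive replicate 3, and WNT2B at 0.40 without naive replicate 1.

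All 13 cytoplasmic core genes with a row (PYGO2 was not analysed here) passed the filter, 6 with positive and 7 with negative log2 fold changes, and their median was -0.01. TCF7L2, a DNA-binding partner of beta-catenin, was at 29.2, 27.2 and 26.0 CPM in post-MI replicates 1, 2 and 3, against 47.1, 39.6 and 31.3 CPM in naive replicates 1, 2 and 3. These values did not overlap, as was so for 16.1% of all genes tested in either direction. The log2 fold change of TCF7L2 was -0.52 ± 0.17 (SE; edgeR adjusted p = 0.551; -0.36 without naive replicate 1). Its relative TCF7L1 gave 0.59 and the kinase GSK3B gave -0.23 (edgeR adjusted p = 0.646 and 0.643). Without naive replicate 1 TCF7L1 was at 0.23 and GSK3B at -0.09. Of the canonical target and feedback genes, AXIN2, NKD1, SP5 and TNFRSF19 were at the floor in all 6 libraries. Of the 9 with a row (NKD2 and RNF43 were listed but not analysed here), 4 passed the filter, 2 with positive and 2 with negative log2 fold changes (median 0.03). Among them the receptor-degrading ligase ZNRF3 gave a log2 fold change of 0.41, LEF1 0.06 and cyclin D1 (CCND1) -0.39 (edgeR adjusted p = 0.588, 0.955 and 0.745). Leaving out post-MI replicate 1 gave -0.12 for CCND1 and 0.0095 for LEF1. Leaving out post-MI replicate 3 gave -0.92 for CCND1, and leaving out naive replicate 3 gave 0.14 for LEF1.

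**Figure D4:**
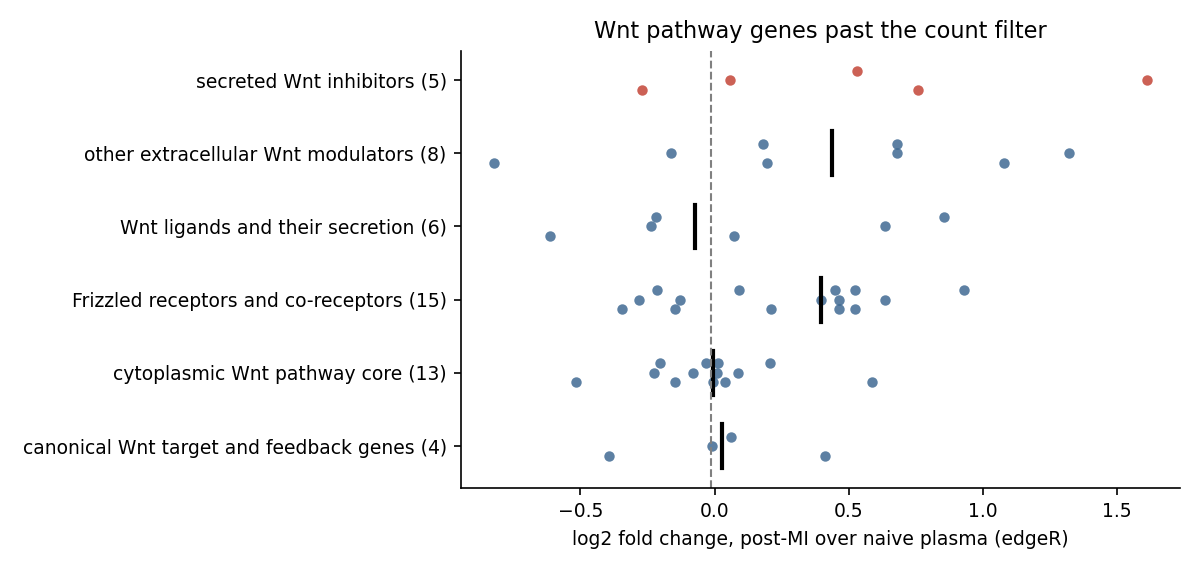
Log2 fold changes from edgeR, post-MI over naive plasma, of the Wnt pathway genes that passed the count filter (1 dot per gene, number of genes in brackets; red, secreted Wnt inhibitors; blue, other lists). Black bars are the medians of the other lists and the dashed line is the median of all genes tested, -0.01; in edgeR 0 of these genes passed the adjusted threshold.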

How the data were processed

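Messenger RNA of 6 libraries was sequenced from a stranded kit as paired ends of 150 bp, per the labels' protocols. The submitters' processing notes name the build Oar_v3.1 and the tools featureCounts 2.0.0, STAR 2.5.2b, DESeq2 1.26.0, SAMtools 1.9, MultiQC 1.5 and FastQC. Neither the gene annotation nor a strand setting is given there. It is therefore not known whether reads of a gene and its antisense partner were counted apart. The deposited table holds raw counts per gene symbol. In the deposited files of single samples, the signal is each count divided by a factor common to the library (100% of non-zero counts within 0.01%); these values were not tested separately.

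In R 4.3.3, genes were kept by filterByExpr of edgeR 4.0.16 (minimum count 10, minimum total 15; 14326 genes), scaled by TMM and tested by edgeR's quasi-likelihood test over all genes, with Benjamini-Hochberg adjustment at 0.05. The 4 members below the filter were fitted with all 17030 genes that had a count. An SE is the size of the log2 fold change divided by the root of its F statistic. Poisson and binomial intervals are exact at 95%; they and the floor of 3 counts cover counting error only. Log2 CPM used a prior count of 2. Alternatives were DESeq2 1.42.0, limma-voom (limma 3.58.1), other scalings and filters, a replicate block and libraries left out. The code was tested on simulated data. RefSeq names of ARS-UI_Ramb_v3.0 matched 9 of 9 members, and served for names and for which genes lie beside or overlap a member; no coordinate is given, since its build is not the one of the files.

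The members and lists were chosen with earlier results of these data known. Named genes are the 9 members, up to 3 genes with the smallest p in each of 5 pathway lists and the 3 genes most like each member past the filter (1 of these is not reported here); floor genes, KREMEN1 and the neighbours of members were named after their values were seen.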

Additional observations from a re-analysis of the deposited data

How the results depend on the processing

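Across the alternatives edgeR and limma-voom called 0 genes, apart from edgeR without both naive replicate 1 and post-MI replicate 3. That fit, added after seeing the data, leaves 2 libraries per group and called 3 genes. The choice of tool mattered more, since the DESeq2 Wald test on all 6 libraries called 218 genes. All of these fits called 0 members. APCDD1 was the 1 member with non-overlapping groups under each scaling and filter. With single libraries left out the number was 1 to 3 (SFRP1 joined without naive replicate 2, where 30% of all genes tested did not overlap, WIF1 without post-MI replicate 1, where 23.4% did not, and both SFRP1 and FRZB once post-MI replicate 3 was left out, where 32% did not). Without both libraries it was 5, with DKK3 and SFRP4 lower and FRZB, SFRP1 and APCDD1 higher with post-MI plasma, where the share was 46.8%. At a floor of 10 counts in place of 3, 3 members (SFRP2, DKK1 and DKK2) lay at the floor throughout in place of 1.

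The log2 fold changes of FRZB, SFRP1 and APCDD1 kept their sign in each fit run, at 2.18 to 3.43, 1.29 to 2.30 and 0.28 to 1.18 with single libraries left out. That of SFRP4 ran from -0.69 to 0.26 (0.26 without naive replicate 3, 0.08 without post-MI replicate 1, -1.02 without both libraries named above), that of DKK3 from -0.23 to 0.45 (-0.23 without naive replicate 1, -0.14 without post-MI replicate 3, -0.43 without both) and that of WIF1 from 0.06 to 1.002 (-0.18 without both libraries). The cause was not tested. With limma-voom APCDD1 gave 1.22. No value is given for SFRP2, or for DKK1 and DKK2 in fits where a group was at 0 or both groups were at the floor.

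The labels do not say whether the replicate numbers pair the libraries. Deviations of same-numbered libraries from their group means correlated at 0.15, -0.11 and 0.09. Those of differently numbered libraries correlated at -0.31 to 0.24. These values cannot exclude a shared donor or batch. With the number as a replicate block edgeR called 0 genes and 0 members, and gave 2.40 for FRZB, 1.65 for SFRP1, 1.11 for APCDD1, 0.15 for DKK3, -0.17 for SFRP4 and 0.60 for WIF1. The SE with the block was 0.21 for DKK3, 0.43 for SFRP4, 0.47 for WIF1 and 0.49 for SFRP1. Without the block these were 0.35, 0.66, 0.78 and 0.57. The SE was larger with the block for FRZB (1.36 against 1.15) and APCDD1 (0.62 against 0.61). Counts of 27 or fewer in any library limit what can be said of FRZB, SFRP4, WIF1, DKK1, DKK2 and SFRP2.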
